A study of Mus musculus with 10 samples.

Results

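The 39 genes described here build and specify the junctions of epithelial cells: E-cadherin and EpCAM, claudins and other tight junction proteins, desmosomal proteins, epithelial splicing and transcription factors, membrane-bound proteases with their inhibitors, and polarity and trafficking proteins. They were taken by symbol from the deposited count table, with keratins left out. All 39 were among the 55487 genes of the table, and all 39 were among the 16565 genes with enough counts to be tested.

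PolyA RNA was sequenced from primary tumours of the pancreas of KPF mice on the C57BL/6J background, a pancreatic cancer model, used at 6 to 12 weeks of age. The product of Grem1, Gremlin 1, is secreted and blocks bone morphogenetic proteins. In the group labelled Grem1-deleted (Grem1∆/∆, 5 tumours), mice received 5 daily doses of tamoxifen (100 mg/kg) that began at 5 weeks of age. In the Grem1 wild-type group (Grem1wt/wt, 5 tumours) mice received the peanut oil vehicle on that schedule. Tamoxifen and genotype therefore cannot be told apart. The labels do not spell out the KPF alleles, the recombinase or the cells it acts in. Bulk tissue is given as the material, yet sorted cells appear in the extraction steps.

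Grem1 was read first. It stood at 47.6, 110.1, 12.6, 6.83 and 23.7 CPM (counts scaled by TMM-adjusted library size) in tumours labelled deleted, against 15.7, 43.1, 23.0, 3.97 and 9.48 CPM in wild-type tumours. The groups overlapped, with means of 40.2 ± 42.1 CPM in tumours labelled deleted and 19.1 ± 15.2 CPM in wild-type tumours (SD, n = 5 each; log2 fold change 1.08, SE 0.79, edgeR adjusted p = 0.761). Grem1 RNA was thus no lower in tumours labelled deleted. The labels do not say which part of the gene was removed, so groups are called by their labels throughout. Total estimated counts per library ran from 10159891 to 18571519. Of the 16565 genes, edgeR's test called 0 at an adjusted p of 0.05 (0%), 983 had an unadjusted p under 0.05 (5.93%), and limma-voom called 0. DESeq2, run without the filter for enough counts, called 7 of 31198 genes. On the first principal component, labelled-deleted tumour 1 lay at -125.7 and the other 9 tumours between -12.3 and 38.0, and its values stand beside the results it touches. Markers of intestine were high in labelled-deleted tumour 2, where 10 of them summed to 3374 CPM, against 106 to 235 CPM in the other tumours labelled deleted and 191 to 347 CPM in wild-type tumours. Each title also holds a number in its tumour ID whose meaning is not given. It is 25 for labelled-deleted tumour 1 alone and 39 for labelled-deleted tumour 4 alone, and 36, 38 and 40 occur in both groups. The design text calls the tumours biological replicates but does not name the animals, so p-values measure the spread between these samples.

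In an epithelial sheet, neighbouring cells are held together by E-cadherin in adherens junctions and by desmosomes, and the gap between them is sealed by tight junctions, in which claudins and occludin span the membrane and ZO proteins link them to actin. ESRP splicing factors and the OVOL, GRHL and ELF3 transcription factors maintain this state, while SNAIL, ZEB and TWIST factors repress it in epithelial-mesenchymal transition. Pancreatic ductal carcinomas range from well-differentiated glands that keep these junctions to poorly differentiated tumours that lose them. In bulk tumours, fewer epithelial cells and less RNA per epithelial cell cannot be told apart.

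Scaled to exon length, the members ranged widely. Epcam, a homophilic adhesion protein of epithelia, was the highest, at 190.1 ± 70.3 CPM per kb in tumours labelled deleted and 255 ± 13.8 CPM per kb in wild-type tumours (SD, n = 5 each). Cldn4, a barrier-forming claudin, came next at 106 ± 55.7 CPM per kb in tumours labelled deleted and 198 ± 75.8 CPM per kb in wild-type tumours. Cdh1, which encodes E-cadherin, followed at 90.7 ± 34.2 CPM per kb in tumours labelled deleted and 126 ± 11.3 CPM per kb in wild-type tumours. All 3 were detected in every library, as were the epithelial keratins. At the low end lay the transcription factor genes Ovol1 (0.856 ± 0.988 and 0.599 ± 0.167 CPM per kb in tumours labelled deleted and wild-type tumours) and Grhl1 (0.602 ± 0.371 and 0.745 ± 0.143 CPM per kb), and the claudin gene Cldn1 (0.897 ± 0.249 and 0.739 ± 0.430 CPM per kb). In the wild-type order, only 10 of 38 steps between neighbouring members were larger than the larger SD of the pair, so most neighbours do not differ beyond their spread.

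**Figure D1:**
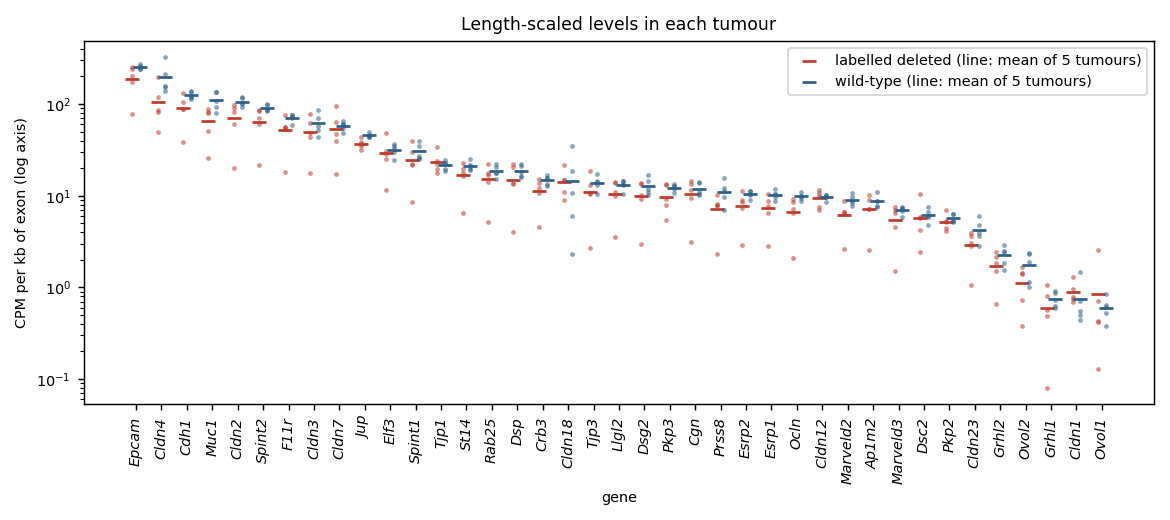
Length-scaled level of each member, in CPM per kb of exon on a log axis, with 1 point per tumour and a line at each group's mean, genes ordered by the wild-type mean. Epcam and Cldn4 lead in both groups, and for most genes 1 red point, labelled-deleted tumour 1, lies far below the others.

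Between the groups, 36 of 39 members had a negative log2 fold change (labelled deleted over wild-type), against 44.9% of all genes tested, and their median was -0.34, against 0.03 over all genes. No member passed the test across all genes: 0 of 39 had an adjusted p under 0.05 with edgeR, DESeq2 or limma-voom. The lowest was 0.759 with edgeR, 0.479 with DESeq2 and 0.802 with limma-voom. At an unadjusted p under 0.05 there were 3 members, Cldn4, Jup and Muc1, all lower in tumours labelled deleted, against 2.46% of all genes lower at that p. Members vary together across tumours and are not independent of each other.

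Labelled-deleted tumour 1 was the lowest of the 10 tumours in 35 of 39 members, against 29.4% of all genes tested. In 33 of them it also lay more than 1 log2 unit under the median of the other 9 tumours, against 17.1% of all genes. Its median difference from the other 9 was -1.73 over the members. Without it, 31 of 39 members had a negative log2 fold change (48.1% of all genes), the median was -0.14, and 6 members, Cldn2, Ocln, Marveld2, Spint2, Jup and Muc1, had an unadjusted p under 0.05 and were lower (2.41% of all genes were lower at that p, and 5.42% passed it in either direction). None of these passed adjustment over all genes (edgeR, lowest adjusted p 0.906). With the number in the titles as a block, a fit added after the data were seen, labelled-deleted tumours 1 and 4 no longer bear on the difference, since each is alone under its number. In that fit 26 of 39 members had a negative log2 fold change, against 49.3% of all genes, and their median was -0.09. Cldn4 (-0.75), Muc1 (-0.51), Marveld2 (-0.31) and Jup (-0.25) were lower at an unadjusted p under 0.05 there, against 3.85% of all genes in either direction, and none passed adjustment. The number in the title and labelled-deleted tumour 1 cannot be told apart.

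**Figure D2:**
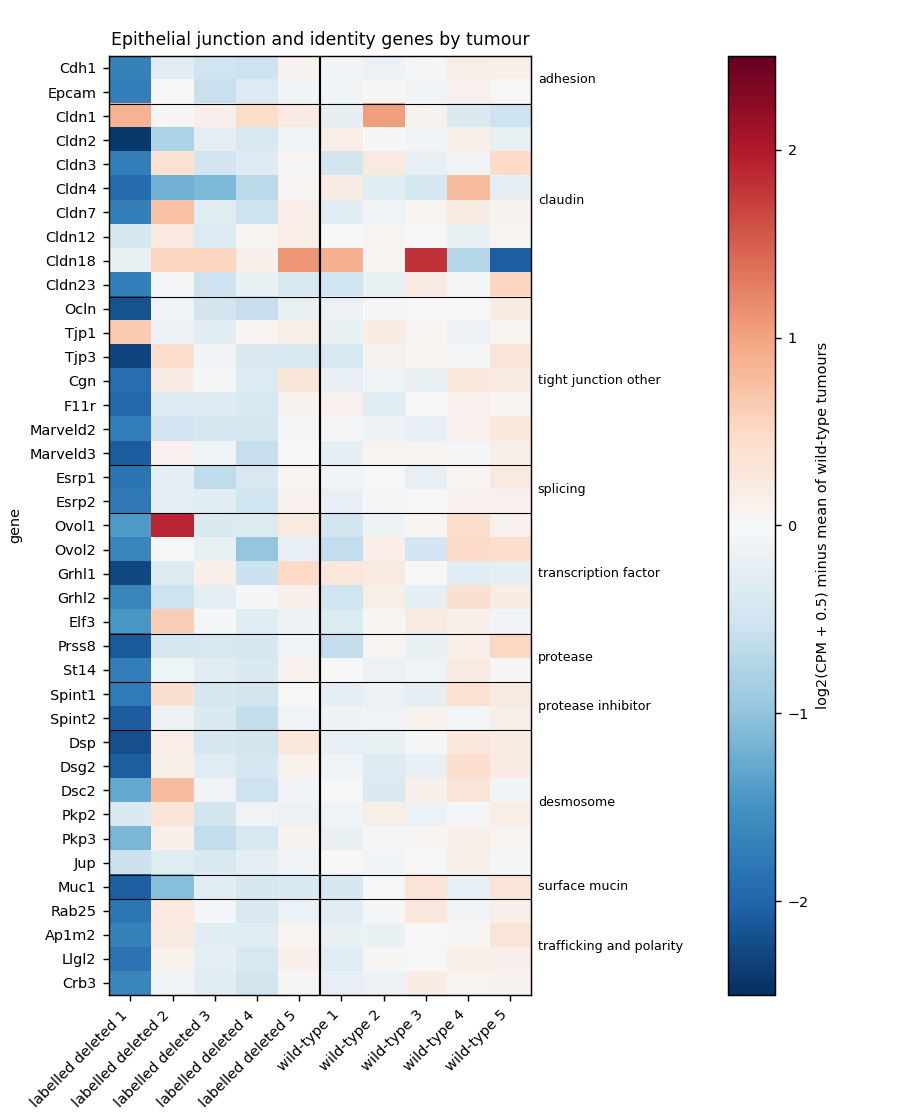
Each cell is log2(CPM + 0.5) of 1 member in 1 tumour minus the mean of the 5 wild-type tumours, blue for lower and red for higher, with members grouped by role. The column of labelled-deleted tumour 1 is the darkest blue in most rows and is pale or red for Cldn1, Cldn12, Cldn18, Tjp1, Pkp2 and Jup, and the columns of labelled-deleted tumours 3 and 4 are mostly pale blue.

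Tumours 3 and 4 of the group labelled deleted were also low. The median member stood at -1.82 in labelled-deleted tumour 1, 0.02 in tumour 2, -0.30 in tumour 3, -0.41 in tumour 4 and 0.05 in tumour 5, relative to each gene's wild-type mean in log2 CPM, and at -0.20 to 0.13 in the wild-type tumours. In tumours 3 and 4 of the group labelled deleted, 36 and 35 of 39 members lay below the wild-type mean (49.9% and 49.8% of all genes). In tumour 5 of that group 16 did (49.1% of all genes). Wild-type tumour 1 came close to tumours 3 and 4, with 33 members below that mean (48.9% of all genes). The other wild-type tumours had 8 to 22. At least 4 of the 5 tumours labelled deleted lay below all 5 wild-type tumours in 11 members (3.47% of all genes), and 0 members had at least 4 above (2.93% of all genes). Counting only labelled-deleted tumours 2 to 5, at least 3 of these lay below every wild-type tumour in the same 11 members, against 5.32% of all genes. By exact permutation of log2 CPM, two-sided, the unadjusted p was under 0.05 in 11 members, all lower in tumours labelled deleted, against 3.34% of all genes with such a p and lower. These are the same members again, but with Muc1 in place of Esrp2, so the 3 counts are not separate results.

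The promoter windows of 5 members are shown as examples of different patterns between the groups, chosen after their values were seen. Epcam, Cldn4 and Muc1 were lower in most tumours labelled deleted, Jup was lower in all 5, and Tjp1 was highest in labelled-deleted tumour 1. Each is the 250 bases before the RefSeq start, 5′ to 3′ on the gene's strand, in GRCm38.p6. Capitals mark CACCTG or its reverse complement CAGGTG, the E-box that SNAIL and ZEB repressors bind.
Epcam: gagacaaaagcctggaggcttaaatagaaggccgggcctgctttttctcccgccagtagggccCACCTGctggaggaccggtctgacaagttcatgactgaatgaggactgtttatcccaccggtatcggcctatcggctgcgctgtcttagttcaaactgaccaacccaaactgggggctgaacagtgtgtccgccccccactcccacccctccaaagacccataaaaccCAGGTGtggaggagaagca
Cldn4: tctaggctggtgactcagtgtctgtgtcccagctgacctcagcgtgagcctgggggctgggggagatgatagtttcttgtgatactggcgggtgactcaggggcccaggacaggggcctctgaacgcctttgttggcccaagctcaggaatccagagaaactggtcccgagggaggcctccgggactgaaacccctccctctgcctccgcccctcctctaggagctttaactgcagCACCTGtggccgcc
Muc1: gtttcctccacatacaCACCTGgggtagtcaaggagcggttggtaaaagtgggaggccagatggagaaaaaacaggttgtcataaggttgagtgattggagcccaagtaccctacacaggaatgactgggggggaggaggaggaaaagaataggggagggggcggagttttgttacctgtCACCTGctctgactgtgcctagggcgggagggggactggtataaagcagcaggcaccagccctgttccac
Jup: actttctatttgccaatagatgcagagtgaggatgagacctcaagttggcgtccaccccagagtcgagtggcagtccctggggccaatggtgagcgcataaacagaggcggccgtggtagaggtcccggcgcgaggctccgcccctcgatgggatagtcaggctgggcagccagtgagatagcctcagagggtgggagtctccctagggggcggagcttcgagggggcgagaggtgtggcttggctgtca
Tjp1: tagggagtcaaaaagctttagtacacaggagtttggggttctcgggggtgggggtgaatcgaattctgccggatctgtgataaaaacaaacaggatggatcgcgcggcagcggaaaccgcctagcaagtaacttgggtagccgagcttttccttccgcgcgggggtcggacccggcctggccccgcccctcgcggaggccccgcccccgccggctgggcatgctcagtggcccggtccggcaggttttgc
The windows lie at chr17:87635729-87635978 on the plus strand (Epcam), chr5:134946935-134947184 on the minus strand (Cldn4), chr3:89228806-89229055 on the plus strand (Muc1), chr11:100397791-100398040 on the minus strand (Jup) and chr7:65371245-65371494 on the minus strand (Tjp1). By GENCODE M21 Tjp1 spans chr7:65296165-65527781 on the minus strand, so its window precedes a start inside the gene. The sequence before its outer start is not shown. The E-box occurs in 2 places in the Epcam and Muc1 windows, in 1 place in the Cldn4 window and in 0 places in the Jup and Tjp1 windows. RefSeq windows were at hand for 25 members but not for the rest, Cdh1 among them. Of the 25, 12 (48.0%) held CACCTG on either strand in at least 1 window. This compares with 18.8% of tested genes and 19.4% of all 27025 genes with a window. Genes with more windows have more chances of a match: the 25 members had 34 windows and the 27025 genes had 32851. The looser E-box CANNTG, which includes the first, was in 18 of 25 members (72.0%) and 62.6% of tested genes. The grainyhead-like motif AACCNGTT was in 3 of 25 members, Cgn, Muc1 and Rab25 (12.0%), and 1.92% of tested genes. The GC box GGGCGG (72.0% of members, 60.4% of tested genes), the CCAAT box CCAAT (36.0% and 39.9%) and the TATA box TATAAA (12.0% and 8.69%) were also searched on both strands. A match of letters is a description and not a bound site.

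Cdh1 and Epcam, the surface adhesion pair, were both lower in most tumours labelled deleted. Cdh1 (ENSMUSG00000000303, chr8:106603351-106670246, plus strand, GRCm38) stood at 177, 477, 408, 403 and 608 CPM in tumours labelled deleted, against 543, 520.4, 551, 637 and 623 CPM in wild-type tumours. Labelled-deleted tumours 1 to 4 lay below every wild-type tumour, and tumour 5 lay within the wild-type range. The log2 fold change was -0.47 (SE 0.26, edgeR adjusted p = 0.759), and -0.28 (SE 0.13) without labelled-deleted tumour 1. Epcam, whose window above holds 2 E-boxes, stood at 172, 559, 382, 441 and 532 CPM in tumours labelled deleted, against 534, 572, 532, 605 and 560.4 CPM in wild-type tumours. In 4 of the 5 tumours labelled deleted it was under the wild-type range, and in tumour 5 the margin was narrow, with 531.6 CPM against 531.7 CPM in wild-type tumour 3. Its log2 fold change was -0.43 (SE 0.26, edgeR adjusted p = 0.759), and -0.23 (SE 0.12) without labelled-deleted tumour 1. Exact two-sided permutation gave p = 0.0476 for Cdh1 and p = 0.0317 for Epcam, both unadjusted.

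Claudins, the tetraspan proteins that set the permeability of tight junctions, did not share 1 pattern. Of 8 claudin members 7 had a negative log2 fold change, with a median of -0.22, and without labelled-deleted tumour 1 there were 4 with a negative and 4 with a positive one. Cldn4 had the most negative log2 fold change of all 39 members. It was at 89.3, 149, 158, 214 and 356 CPM in tumours labelled deleted, against 388, 280.5, 254, 589 and 289 CPM in wild-type tumours. Tumours 1 to 4 of the group labelled deleted were under every wild-type tumour. Its log2 fold change was -0.90 (SE 0.36, edgeR adjusted p = 0.759), -0.72 (SE 0.33) without labelled-deleted tumour 1, and -0.65 without wild-type tumour 4, the highest of all. Cldn2, a cation-pore claudin, was at 65.9, 203, 302, 269.7 and 328 CPM in tumours labelled deleted and 393, 339, 336, 388 and 308 CPM in wild-type tumours. It too was below the wild-type range in labelled-deleted tumours 1 to 4. Its log2 fold change was -0.59 (SE 0.34), and -0.36 (SE 0.14) without labelled-deleted tumour 1 (edgeR adjusted p = 0.759 and 0.906).

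Other claudins overlapped between the groups. Cldn7, a basolateral claudin that binds EpCAM, was at 33.8, 187, 91.0, 77.6 and 125 CPM in tumours labelled deleted, against 93.6, 106, 117, 127 and 119 CPM in wild-type tumours. The highest and the lowest value both came from tumours labelled deleted, and the log2 fold change was -0.13 (SE 0.35) with all tumours and 0.09 (SE 0.23) without labelled-deleted tumour 1. Cldn23 was at 1.96, 7.31, 5.17, 6.67 and 5.59 CPM in tumours labelled deleted, against 5.19, 6.65, 8.75, 7.32 and 11.2 CPM in wild-type tumours (log2 fold change -0.54, SE 0.33, edgeR adjusted p = 0.759). It was -0.34 (SE 0.23) without labelled-deleted tumour 1. Cldn3, a close relative of Cldn4, averaged 62.8 ± 28.2 CPM in tumours labelled deleted and 78.0 ± 20.7 CPM in wild-type tumours (SD, n = 5 each). Cldn12 differed little, at 39.5 ± 8.21 CPM in tumours labelled deleted and 40.7 ± 2.60 CPM in wild-type tumours.

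Cldn18 and Cldn1 were the claudins that varied most among wild-type tumours. Cldn18, whose product lines gastric and lung epithelium, stood at 39.8, 65.4, 65.7, 49.2 and 96.8 CPM in tumours labelled deleted, against 83.9, 47.2, 157, 27.1 and 10.4 CPM in wild-type tumours. Both extremes were wild-type, and the SD of its log2 CPM was 0.48 in tumours labelled deleted and 1.499 in wild-type tumours. Cldn1, the claudin of the epidermal barrier, was at 6.32, 3.34, 3.61, 4.64 and 3.81 CPM in tumours labelled deleted, against 2.67, 7.20, 3.47, 2.44 and 2.12 CPM in wild-type tumours. It was one of 3 members with a positive log2 fold change (0.28, SE 0.35) and one of 2, with Tjp1, that stood higher in labelled-deleted tumour 1 than the median of the other 9.

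**Figure D3:**
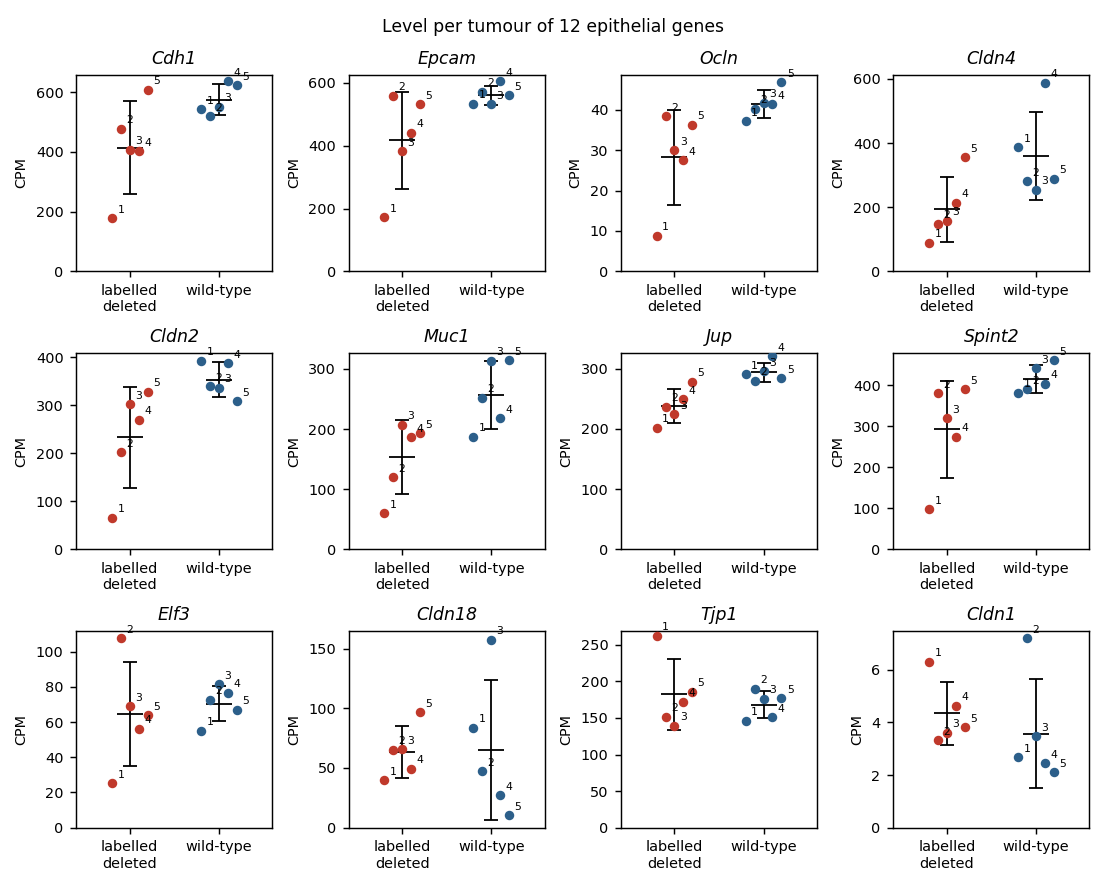
CPM of 12 members in each tumour, numbered 1 to 5 within its group, with the mean and SD of each group in black. Tumour 1 of the group labelled deleted is the lowest point for Cdh1, Epcam, Ocln, Cldn4, Cldn2, Muc1, Jup, Spint2 and Elf3, and the highest for Tjp1.

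Of 7 other tight junction genes 6 had a negative log2 fold change, with a median of -0.37, and of -0.13 without labelled-deleted tumour 1. Ocln, which encodes occludin, was at 8.81, 38.5, 30.0, 27.5 and 36.4 CPM in tumours labelled deleted, against 37.3, 40.26, 41.8, 41.4 and 46.9 CPM in wild-type tumours. Only labelled-deleted tumour 2 reached the wild-type range. The log2 fold change was -0.56 (SE 0.31), and -0.33 (SE 0.12) without labelled-deleted tumour 1 (edgeR adjusted p = 0.759 and 0.906). Marveld2, which encodes tricellulin of three-cell contacts, was at 8.90, 21.6, 22.2, 22.6 and 29.5 CPM in tumours labelled deleted, against 29.6, 28.0, 26.3, 32.8 and 36.6 CPM in wild-type tumours. It lay under the wild-type range in labelled-deleted tumours 1 to 4 (log2 fold change -0.55, SE 0.26, edgeR adjusted p = 0.759), and its log2 fold change was -0.35 (SE 0.13) without tumour 1. F11r, the junctional adhesion molecule JAM-A, averaged 138 ± 55.5 CPM in tumours labelled deleted and 189 ± 18.3 CPM in wild-type tumours, and Marveld3 averaged 17.7 ± 7.94 and 22.8 ± 2.30 CPM in the same order (SD, n = 5 each).

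The scaffold genes were not alike. Tjp1, which encodes ZO-1, was at 263, 152, 139, 172 and 186 CPM in tumours labelled deleted, against 146, 190.3, 177, 151 and 177 CPM in wild-type tumours. Labelled-deleted tumour 1 held the most Tjp1 of all 10 tumours, 0.61 log2 units above the median of the other 9, while its Tjp3, the ZO-3 scaffold gene, differed by -2.29 log2 units from that median. The log2 fold change of Tjp1 was 0.12 (SE 0.17), and -0.05 (SE 0.11) without labelled-deleted tumour 1. Tjp3 averaged 41.2 ± 21.4 CPM in tumours labelled deleted and 51.7 ± 9.08 CPM in wild-type tumours, and Cgn, the cytoplasmic plaque protein cingulin, 62.5 ± 27.3 and 72.0 ± 11.2 CPM (SD, n = 5 each).

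Esrp1 and Esrp2 encode RNA-binding proteins that keep epithelial splice forms, and their levels ran in parallel. Esrp1 was at 17.9, 54.6, 41.1, 49.0 and 66.6 CPM in tumours labelled deleted, against 61.6, 65.1, 55.6, 66.6 and 75.4 CPM in wild-type tumours. Tumours 1 to 4 of the group labelled deleted lay below every wild-type tumour, as they did for Esrp2. The log2 fold change was -0.50 (SE 0.28) for Esrp1 and -0.42 (SE 0.28) for Esrp2, with an edgeR adjusted p of 0.759 each. They were -0.30 (SE 0.14) and -0.22 (SE 0.12) without labelled-deleted tumour 1. Gene counts do not show splice forms.

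Of 5 transcription factor genes 4 had a negative log2 fold change, and 3 without labelled-deleted tumour 1 (median -0.30, and -0.03 without it). Grhl2, a direct activator of Cdh1 and claudin genes, was at 5.69, 13.1, 15.9, 18.3 and 20.8 CPM in tumours labelled deleted, against 13.3, 21.04, 16.0, 25.2 and 21.5 CPM in wild-type tumours. The groups overlapped (log2 fold change -0.39, SE 0.31, edgeR adjusted p = 0.771, and -0.19, SE 0.20, without labelled-deleted tumour 1). Elf3, an ETS factor of differentiated epithelium, was at 25.4, 108, 69.0, 56.3 and 63.8 CPM in tumours labelled deleted, against 55.03, 72.7, 81.4, 76.7 and 66.9 CPM in wild-type tumours. Both the lowest and the highest Elf3 value were in the group labelled deleted, in tumours 1 and 2, and its log2 fold change was -0.13 (SE 0.30), and 0.07 (SE 0.19) without tumour 1. Ovol2, a repressor of mesenchymal genes, was at 0.801, 3.55, 3.04, 1.55 and 2.96 CPM in tumours labelled deleted, against 2.12, 4.01, 2.39, 5.07 and 4.94 CPM in wild-type tumours (log2 fold change -0.64, SE 0.41, and -0.42, SE 0.34, without labelled-deleted tumour 1). Its relative Ovol1 reached 9.01 CPM in labelled-deleted tumour 2, where intestinal markers were high, and 0.445 to 2.93 CPM in the other 9. Ovol1, Ovol2 and Grhl1 each had under 10 estimated counts in at least 1 library, so counting error adds to their spread.

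Muc1 and Jup stood out among the surface and plaque genes. Muc1, a transmembrane mucin of ductal cells, was at 60.1, 120.1, 208, 186.9 and 193 CPM in tumours labelled deleted, against 187.5, 252.2, 314, 218 and 314 CPM in wild-type tumours. Labelled-deleted tumours 1, 2 and 4 lay under the wild-type range, tumour 4 only just, and tumours 3 and 5 lay within it. Its log2 fold change was -0.74 (SE 0.31), and -0.54 (SE 0.20) without labelled-deleted tumour 1 (edgeR adjusted p = 0.759 and 0.906). Jup, which encodes plakoglobin, the catenin shared by desmosomes and adherens junctions, was at 202, 237, 225, 249.9 and 278 CPM in tumours labelled deleted, against 290.5, 280.0, 296, 321 and 284 CPM in wild-type tumours. It was the only member in which all 5 tumours labelled deleted lay below all 5 wild-type tumours (0.435% of all genes), and the nearest pair was 278.2 and 280.0 CPM. The log2 fold change was small, -0.30 (SE 0.09), and moved least without labelled-deleted tumour 1, to -0.25 (SE 0.08). The edgeR adjusted p was 0.759 and 0.906, and the exact permutation p of 0.00794 is the smallest that test can give.

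The other desmosomal genes had larger spreads. Dsp, the desmoplakin that ties desmosomes to keratin, was at 38.6, 200.2, 131, 129.8 and 213 CPM in tumours labelled deleted, against 154, 157, 174, 214 and 202 CPM in wild-type tumours. Tumours 2 and 5 of the group labelled deleted lay within the wild-type range and the other 3 under it (log2 fold change -0.34, SE 0.36, and -0.10, SE 0.18, without tumour 1). All 6 desmosomal members had a negative log2 fold change, from -0.37 for the cadherin Dsg2 to -0.11 for the cadherin Dsc2, with a median of -0.31. Without labelled-deleted tumour 1, 5 of the 6 were negative and the median was -0.12, with Dsg2 at -0.14 and Dsc2 at 0.09. The plakophilin Pkp2 was not lowest in labelled-deleted tumour 1, where it stood at 23.6 CPM, against 22.1 CPM in tumour 3 of that group and 27.5 to 34.0 CPM in wild-type tumours.

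The matriptase cascade of membrane proteases and their Kunitz inhibitors had lower means for proteases and inhibitors alike in tumours labelled deleted, with none past the adjusted threshold. Prss8, which encodes prostasin, was at 4.27, 14.7, 14.9, 14.5 and 18.7 CPM in tumours labelled deleted, against 13.0, 20.9, 17.8, 22.5 and 28.7 CPM in wild-type tumours (log2 fold change -0.61, SE 0.345, and -0.39, SE 0.21, without labelled-deleted tumour 1). St14, which encodes matriptase, averaged 127 ± 47.5 CPM in tumours labelled deleted and 163 ± 17.3 CPM in wild-type tumours (SD, n = 5 each, log2 fold change -0.36, SE 0.27, and -0.15, SE 0.11, without labelled-deleted tumour 1). Spint2, the inhibitor HAI-2, was at 97.4, 380.2, 320.1, 274 and 389.7 CPM in tumours labelled deleted, against 381.3, 389.7, 441, 404 and 461 CPM in wild-type tumours. In 4 of 5 tumours labelled deleted it was under the wild-type range (log2 fold change -0.51, SE 0.30, or -0.28, SE 0.12, without tumour 1). Spint1, the inhibitor HAI-1, was at 23.8, 110.1, 61.2, 60.2 and 82.4 CPM in tumours labelled deleted, against 70.6, 75.0, 70.1, 108 and 97.5 CPM in wild-type tumours. Its groups overlapped, and labelled-deleted tumour 2 was the highest of all 10 (log2 fold change -0.32, SE 0.33, and -0.10, SE 0.21, without labelled-deleted tumour 1). The edgeR adjusted p was 0.759 for Prss8 and Spint2, 0.762 for St14 and 0.809 for Spint1.

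The trafficking and polarity genes were uniform. Rab25, a recycling GTPase, Ap1m2, the epithelial clathrin adaptor subunit, Llgl2, a basolateral polarity protein, and Crb3, an apical determinant, had log2 fold changes from -0.40 (Crb3) to -0.27 (Ap1m2), and from -0.20 to -0.06 without labelled-deleted tumour 1. In that tumour they differed from the median of the other 9 by -1.90 (Llgl2) to -1.59 (Crb3) log2 units.

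**Figure D4:**
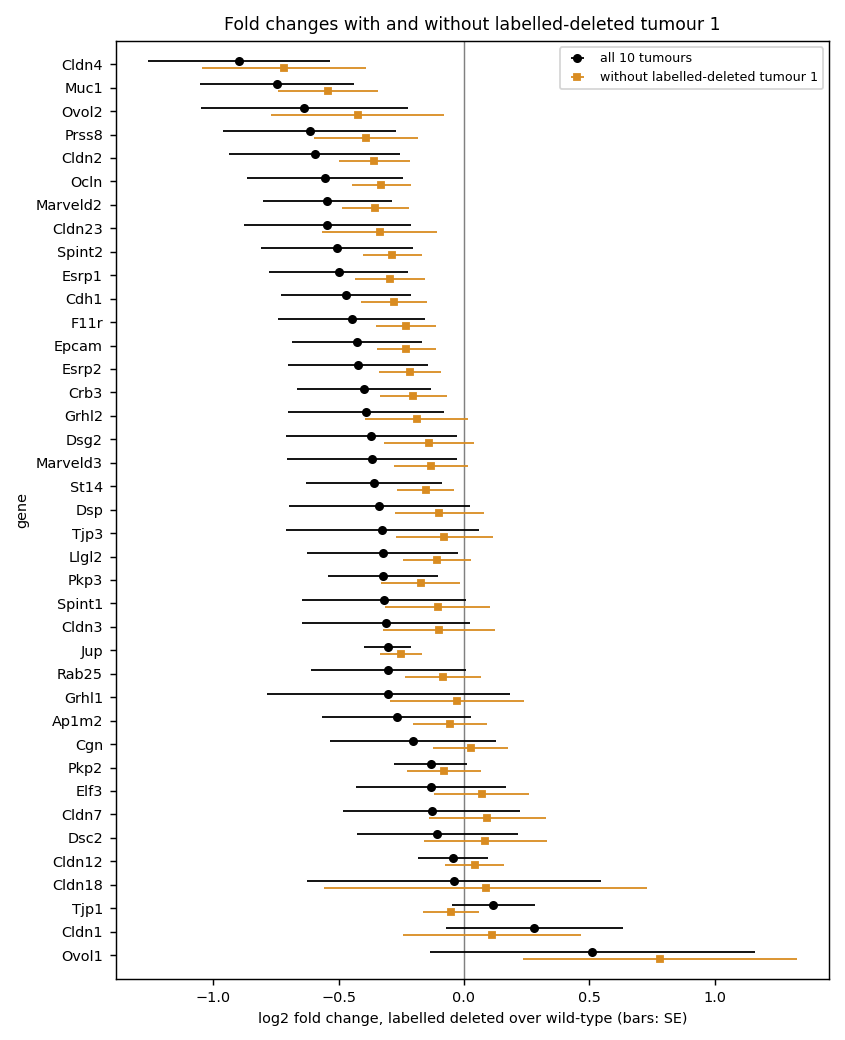
Log2 fold change, labelled deleted over wild-type, of each member with its SE, from all 10 tumours (black) and without labelled-deleted tumour 1 (orange). Values run from -0.90 (Cldn4) to 0.51 (Ovol1), and most move towards 0 without that tumour while Jup barely moves.

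The members were also more variable among tumours labelled deleted. The median SD of log2 CPM was 0.76 in tumours labelled deleted and 0.21 in wild-type tumours, against 0.32 and 0.22 over all genes. Without labelled-deleted tumour 1 it was 0.29 in that group, against 0.25 over all genes. Members differed in how far labelled-deleted tumour 1 departed: the log2 difference from the median of the other 9 was -2.82 for Grhl1, -2.31 for Cldn2 and -2.29 for Tjp3, against -0.47 for Jup, -0.49 for Cldn12 and -0.27 for Pkp2. Labelled-deleted tumour 2 was mixed, with 21 members above and 18 below the median of the other 8 tumours. It was the highest tumour for 9 members (13.8% of all genes tested), led by Ovol1 and with Dsc2 and Cldn7 next, and differed from that median by -0.93 for Cldn4, -0.82 for Muc1 and -0.71 for Cldn2 (log2).

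Markers of other cells moved with labelled-deleted tumour 1 as well. The 4 epithelial keratins Krt7, Krt8, Krt18 and Krt19 summed to 1371 CPM in it, 2434 to 3564 CPM in the other tumours labelled deleted and 3156 to 4057 CPM in wild-type tumours. Its 10 fibroblast markers summed to 8200.3 CPM, against 16248 to 28463 CPM in the other tumours labelled deleted and 15380 to 28174 CPM in wild-type tumours, and 7 of the 10 were lowest in it. The collagens Col1a1, Col1a2 and Col3a1 make up most of that sum. Against this, the receptor gene Pdgfrb was highest of all 10 tumours in it, at 353 CPM against 156 to 208 CPM in the other tumours labelled deleted and 152 to 225 CPM in wild-type tumours. Pdgfra was at 227 CPM there, above the 82.5 to 137 CPM of wild-type tumours but within the 124 to 249.5 CPM of the other tumours labelled deleted. Macrophage (8 markers, 1309 CPM) and endothelial sums (8 markers, 180.1 CPM) were also the lowest of all 10 tumours there, against wild-type ranges of 2673 to 4741 CPM and 333 to 713 CPM. Of the macrophage markers 3 of 8 were lowest in it, with Lyz2 the largest part of the sum, and of the endothelial markers 6 of 8. All 8 proliferation genes were highest in it, at 1001 CPM in sum, against 230.2 to 471 CPM in the other tumours labelled deleted and 266 to 406 CPM in wild-type tumours. Acinar cells, which carry E-cadherin and claudins too, varied within both groups: 10 acinar markers summed to 89.3 to 13256 CPM in tumours labelled deleted and 26.7 to 17771 CPM in wild-type tumours, and the highest of each group was tumour 5. Islet (8 markers, 5.25 to 326 CPM in tumours labelled deleted and 21.9 to 484 CPM in wild-type tumours), lymphocyte (8 markers, 4.63 to 223 and 3.01 to 77.9 CPM), mesothelial (6 markers, Krt19 among them, 378 to 973 and 624 to 1070.1 CPM) and squamous sums (8 markers, 31.9 to 121 and 61.9 to 126 CPM) varied within both groups. No marker was at 0 in all 10 tumours, and the squamous keratin Krt5 was at 0.27 CPM or less in each. The part of these in the members' differences was not tested.

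**Figure D5:**
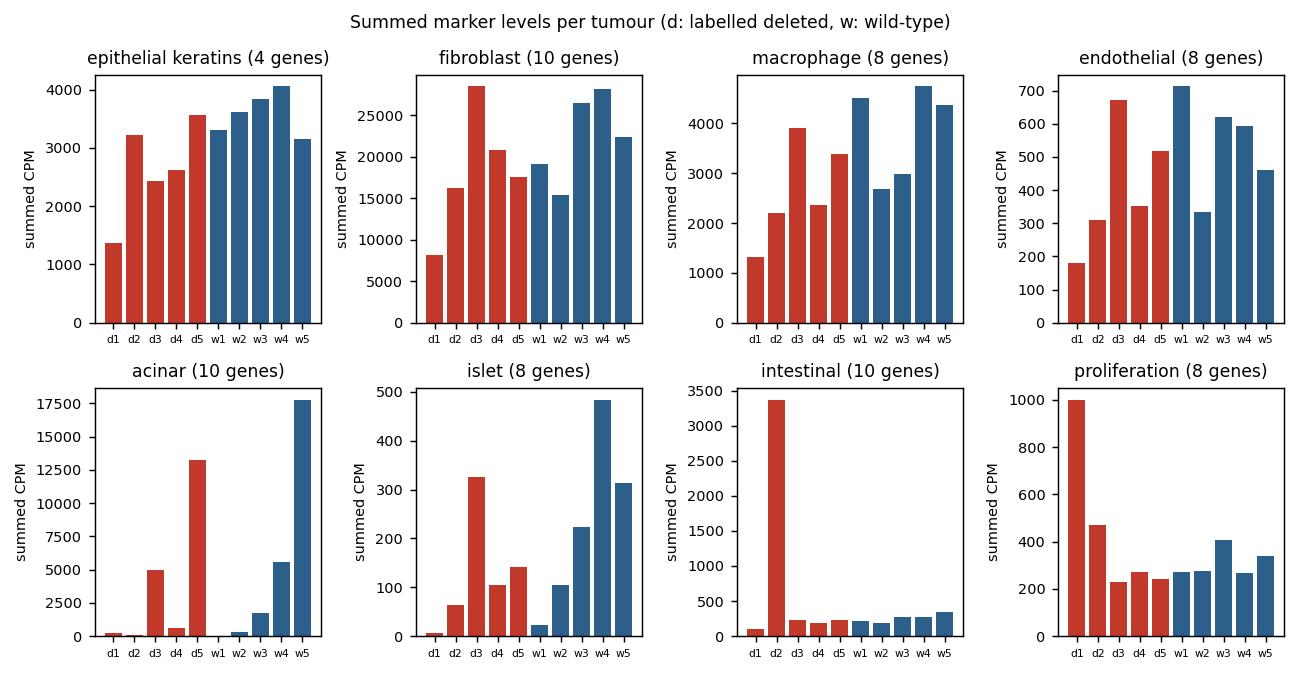
Bars give the summed CPM of 8 marker lists in each tumour, red for labelled deleted and blue for wild-type. Labelled-deleted tumour 1 is lowest for keratins, fibroblast, macrophage, endothelial, islet and intestinal markers and highest for proliferation, at 1001 CPM, and labelled-deleted tumour 2 holds 3374 CPM of intestinal markers.

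The listed factors of epithelial-mesenchymal transition mostly had positive log2 fold changes, more so with labelled-deleted tumour 1 than without it. Of these 10 factors, SNAIL, ZEB and TWIST factors among them, 9 were positive, against 55.1% of all genes, with a median of 0.29. In edgeR's test 0 passed, and 0 had an unadjusted p under 0.05. Without labelled-deleted tumour 1, 9 of 10 were positive, against 51.9% of all genes, with a median of 0.13. Zeb2 was at 0.18 (SE 0.08), Twist1 at 1.04 (SE 0.55) and Tcf4 at 0.79 (SE 0.42), each with an edgeR adjusted p of 0.759. Leaving out labelled-deleted tumour 1 put them at 0.15 (SE 0.08), 0.37 (SE 0.41) and 0.094 (SE 0.11). Twist1 averaged 42.0 ± 37.5 CPM in tumours labelled deleted and 20.4 ± 7.19 CPM in wild-type tumours (SD, n = 5 each), and reached 105 CPM in labelled-deleted tumour 1. In that tumour the log2 difference from the median of the other 9 was 2.58 for Twist1, 2.37 for Prrx1, 2.11 for Tcf4, 1.15 for Zeb1 and 1.02 for Snai2. It was 0.44 for Tcf3, 0.25 for Zeb2 and 0.01 for Snai1, and negative for Foxc2 (-0.71) and Twist2 (-1.15). Which cells of the tumours carry these transcripts was not tested.

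Other junction genes, outside the 39, did not all follow. Of 23 further tight junction and polarity genes tested, 9 had a negative and 14 a positive log2 fold change (median 0.07), and 0 had an unadjusted p under 0.05 in edgeR's test. Of 12 adherens junction genes, 8 were negative and 4 positive, and 3 had an unadjusted p under 0.05 (5.93% of all genes): Nectin4 at -0.44 (SE 0.15), and Nectin3 at 0.58 (SE 0.24) and Vcl, which encodes vinculin, at 0.50 (SE 0.22). These were at -0.44 (SE 0.16), 0.44 (SE 0.24) and 0.32 (SE 0.18) without labelled-deleted tumour 1. Of 6 other claudins tested 5 were negative (median -0.54). Cldn15 was the exception at 2.77 (SE 1.16, unadjusted p under 0.05), with 71.2 CPM in labelled-deleted tumour 2, 0.534 to 4.51 CPM in the other tumours labelled deleted and 1.002 to 3.83 CPM in wild-type tumours. Of 6 further desmosome and envelope genes 5 were negative (median -0.09), and of 7 further epithelial regulators 5 were (median -0.40). Among 15 other epithelial protease and surface genes 14 were negative (median -0.32), with Tspan1 at -0.86 (SE 0.33) and Ceacam1 at -1.001 (SE 0.45) lower at an unadjusted p under 0.05 (2.46% of all genes). Without labelled-deleted tumour 1, 13 of these 15 were negative (median -0.12), with Tspan1 at -0.66 (SE 0.25) and Ceacam1 at -0.78 (SE 0.39). In that fit the medians were 0.12 for the tight junction and polarity genes, -0.06 for the adherens junction genes, -0.30 for the claudins, -0.016 for the desmosome genes and -0.17 for the regulators. Each gene named here had an edgeR adjusted p of 0.759 over all genes with all 10 tumours.

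For 12 members, exons overlap those of a gene on the opposite strand, by 14 to 690 bases, among them Cldn3, Tjp3, Esrp1, Esrp2, Grhl2, Elf3, Prss8, Dsp and Crb3. Without a stated strand setting the reads of such a pair cannot be told apart there.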

How the data were processed

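Polyadenylated RNA of 10 pancreatic tumours was sequenced, and each tumour was placed in its group from its title. The submitters' processing notes name HISAT2 2.2.1 and RSEM 1.3.3 among their tools, and mm10 as the build. Which annotation release and strand setting were used is not stated there. A single table of estimated counts was deposited, and 7.96% of its values were not whole numbers. They also deposited log2 values for 25407 genes, whose transformation is not named, and these served for 1 alternative.

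Estimated counts were rounded. A gene was tested where edgeR 4.0.16's filterByExpr at a minimum count of 10 kept it (16565 of 55487), after TMM scaling. The test was the quasi-likelihood F test of edgeR, robust, fitted over all tested genes, and p-values were adjusted by Benjamini-Hochberg over all genes, at a threshold of 0.05. The standard error (SE) of a log2 fold change came from its F statistic. CPM are counts scaled by library size over the tested genes times its TMM factor, and log2 CPM carry a prior count of 2. The exact permutation test took log2 CPM over 252 assignments, two-sided, and its p-values are not adjusted. The smallest p it can give is 0.00794. R was 4.3.3, limma 3.58.1, DESeq2 1.42.0 and Python 3.11.15. The steps were tested on simulated data with known changes, drawn independently for each gene. These held no outlying tumour and no variation shared between genes, so they do not cover the part of labelled-deleted tumour 1. Counts from 10159891 to 18571519 per library leave the spread between tumours as the main limit for abundant genes. The rarest member had 5 estimated counts in 1 library.

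Alternatives were DESeq2, limma-voom, another scaling, other low-count filters, the deposited log2 values with limma, a block by replicate number, a block by the number in the titles (added after the data were seen), a threshold of 0.1, leaving out each library, and leaving out labelled-deleted tumours 1 and 2 together. The genes, the gene lists and the alternatives were chosen with earlier results of these data known. All 39 members could be named. Values in every tumour are given for 13 members set beforehand and for the 6 others with the smallest p. They are also given for Cldn18 and Cldn1, chosen after their values were seen. Other genes of the pathway were named by the smallest p, at most 3 per list. All 10 factors of epithelial-mesenchymal transition were also named, by their values in labelled-deleted tumour 1. Any other gene shown was chosen after its values were seen. Exon lengths and positions are from GENCODE M21 (GRCm38, the assembly also called mm10), in which 55141 of the 55487 gene identifiers were found. Promoter sequences are from RefSeq (GRCm38.p6).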

Additional observations from a re-analysis of the deposited data

Results flagged for a closer look

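In 2 of 78 groups of 5 values (39 genes in each group of tumours), 1 tumour lay farther from the rest than Dixon's 95% criterion for 5 samples. Chance sets apart about 5% of such groups. Ovol1 was at 9.01 CPM in labelled-deleted tumour 2, and the next highest of that group was at 2.498 CPM. Cldn1 was at 7.20 CPM in wild-type tumour 2, and the next highest wild-type tumour was at 3.47 CPM. On this linear scale labelled-deleted tumour 1 met the criterion for 0 members. On log2 CPM, which spreads low values, 12 of the 78 groups met it, and in 11 of them labelled-deleted tumour 1 was the low one: Cldn23, Ocln, Cgn, F11r, Marveld2, Prss8, St14, Spint2, Dsg2, Ap1m2 and Llgl2. The other was F11r in wild-type tumour 2. This criterion was not applied to all genes, so these 11 cannot be called particular to the members. Over all genes tested, labelled-deleted tumour 1 was the lowest of 10 in 29.4% and the highest in 27.9%.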

How the results depend on the processing

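Members called at an adjusted p under 0.05 stayed at 0 of 39 under every alternative run. The count over all genes was 0 in each but DESeq2, which called 7. DESeq2 was run on 31198 genes without the low-count filter, and edgeR without that filter called 0 of 31660. The cause was not tested. With 1 library left out, 31 to 37 members had a negative log2 fold change, against 44.0% to 48.3% of all genes. The median of the members ran from -0.50 (without labelled-deleted tumour 5) to -0.14 (without tumour 1). Members with an unadjusted p under 0.05 numbered 3, and 2 to 6 when 1 library was left out: 6 without labelled-deleted tumour 1 or 5, 5 without tumours 1 and 2. The share of all genes at that p moved too. It was 5.93% with all tumours and 3.69% to 9.82% with 1 library left out. Without labelled-deleted tumour 1 it was 5.42%, without tumour 5 of that group 8.58%, and without tumours 1 and 2 4.24%. Nothing in the labels says that equal replicate numbers pair tumours, and the correlation of same-numbered deviations ran from -0.02 to 0.39. With a replicate block 6 members had an unadjusted p under 0.05, against 4.71% of all genes. No gene was called there, and the median of the members was -0.49. In the block by title number, added after the data were seen, 26 members were negative and the median was -0.09. In that fit 4 members had an unadjusted p under 0.05, against 3.85% of all genes. There 12 members turned: Cldn7 (0.18), Cldn12 (0.010), Cldn18 (0.66), Tjp1 (-0.057), Cgn (0.16), Marveld3 (0.014), Grhl1 (0.14), Elf3 (0.15), Dsc2 (0.15), Rab25 (0.015), Ap1m2 (0.0074) and Llgl2 (0.0091). Directions turned for 9 members under the other alternatives. Cldn18 was positive with limma-voom (0.42), the deposited log2 values (0.28), the replicate block (0.34) and without labelled-deleted tumours 1 and 2 (0.11), and ran from -0.31 to 0.59 with 1 library left out. Ovol1 was negative with limma-voom (-0.080), the replicate block (-0.079) and without labelled-deleted tumours 1 and 2 (-0.20), and ran from -0.48 to 0.78. Tjp1 was at -0.022 and Grhl1 at 0.077 without tumours 1 and 2. With 1 library left out, Tjp1 ran from -0.052 to 0.19, Cldn7 from -0.46 to 0.094, Cldn12 from -0.12 to 0.043, Cgn from -0.36 to 0.027, Elf3 from -0.39 to 0.071 and Dsc2 from -0.44 to 0.085. The cause was not tested. Depth limits Ovol1, Ovol2 and Grhl1, each with under 10 estimated counts in at least 1 library.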

Other observations

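Cldn18 levels lay on both sides in tumours with many acinar transcripts. Labelled-deleted tumour 5 had 96.8 CPM of Cldn18 and 13256 CPM over 10 acinar markers, while wild-type tumour 5 had 10.4 CPM and 17771 CPM, and wild-type tumour 4 had 27.1 CPM and 5552 CPM. Cldn6, a claudin known from embryonic epithelium, was at 106 ± 66.3 CPM in tumours labelled deleted and 155 ± 27.1 CPM in wild-type tumours (SD, n = 5 each). Ybx3, which binds ZO-1 in the junction, reached 1018 CPM in labelled-deleted tumour 1, the tumour with the most Tjp1. It was at 181 to 318 CPM in the other tumours labelled deleted and 167 to 249.8 CPM in wild-type tumours. Its log2 fold change was 0.97 (SE 0.45, edgeR adjusted p = 0.759), and 0.26 (SE 0.18) without labelled-deleted tumour 1. A link between Ybx3 and Tjp1 was not tested.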
